A study of Mus musculus with 12 samples.

Results

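The 10 genes described here make glutathione, recycle it and break it down: Slc7a11, Gclc, Gclm, Gss, Gsr, Ggt1, Ggt7, Ggct, Chac1 and Chac2. They were chosen by name for these roles, and all 10 were found among the 49671 genes of the count tables and among the 17977 genes with enough reads to be tested. The counts come from RNA of mouse regulatory T cells. These cells, called Tregs, hold other immune cells in check, and their defining transcription factor is Foxp3. The 4 groups were Gclc mutant nTregs, WT nTregs, Gclc mutant iTregs and WT iTregs, with 3 libraries in each, all from C57BL/6 mice 8 weeks old. The nTregs are labelled as sorted and the iTregs as induced, a term used for Tregs made from other CD4 T cells, usually in culture. The sources used here label the mutant libraries Gclc mutant and, in their titles, KO for knockout, but do not give how Gclc was mutated, what drives any deletion, the sort gate or the culture conditions. They also leave unsaid whether animals were pooled and whether each library had its own animal or culture, so the p-values rest on a spread that may be technical.

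Glutathione is a small thiol made of glutamate, cysteine and glycine that buffers reactive oxygen in the cell. Cystine enters through the antiporter that contains Slc7a11, and glutamate-cysteine ligase, a catalytic subunit from Gclc with a modifier subunit from Gclm, joins glutamate to cysteine before Gss adds glycine. Gsr turns the oxidised dimer back into glutathione. Outside the cell gamma-glutamyl transferases such as Ggt1 remove the glutamyl group, and inside it Chac1 and Chac2 cleave glutathione to 5-oxoproline and a dipeptide. Activated T cells are known to need this pathway, and Chac1 and Slc7a11 are known targets of the amino acid response factor ATF4, while Gclc, Gclm, Gsr and Slc7a11 are known targets of the oxidative stress factor NRF2.

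A limit on Gclm comes before its values. One exon of a noncoding Gclm transcript (GRCm38 chr3:122256676-122256971, plus strand, 296 bases) overlaps the pseudogene Gm6061 (chr3:122256728-122257219, same strand) over 244 bases, and all 244 are identical to the messenger RNA of Ppia, the abundant prolyl isomerase cyclophilin A. The likeness reaches further: 297 bases at the end of a Gclm transcript of 762 bases are near-identical to transcripts of 17 other genes. The authors counted reads that align to several places at each place, so Ppia reads can be counted to Gclm. A read wholly within the 244 bases lies equally in Gclm and Gm6061, and to which of them such reads were counted was not tested. The first 100 shared bases are printed because any read within them could come from each of the 3 genes, with the start codon of Ppia in capitals.
Shared stretch of Gclm, Gm6061 and Ppia, chr3:122256728-122256827, plus strand: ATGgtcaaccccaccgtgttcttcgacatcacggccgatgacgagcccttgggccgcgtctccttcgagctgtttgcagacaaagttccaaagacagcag
The Gclm count was 32.0% to 33.9% of the Gm6061 count in mutant nTregs, against 28.5% to 35.5% in WT nTregs (exact permutation test, two-sided, p = 0.4), and 27.7% to 31.7% in mutant iTregs, against 30.4% to 34.2% in WT iTregs (exact p = 0.2). With 3 libraries against 3 this test cannot go below 0.1. Over the 12 libraries the profile of Gclm, as centred log2 CPM, differed from that of Gm6061 by a root mean square of 0.12, which made Gm6061 the 24th nearest of 17976 other tested genes, and from that of Ppia by 0.20, at place 631, while the median gene differed by 0.52. In a separate search that left out predicted-gene and pseudogene names, and so Gm6061 itself, Timm50 was nearest at 0.08. How much of the Gclm count comes from Gclm cannot be told apart from Ppia reads in these tables, and this holds for every Gclm value below. The overlap was looked for after the Gclm values had been seen.

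**Figure D1:**
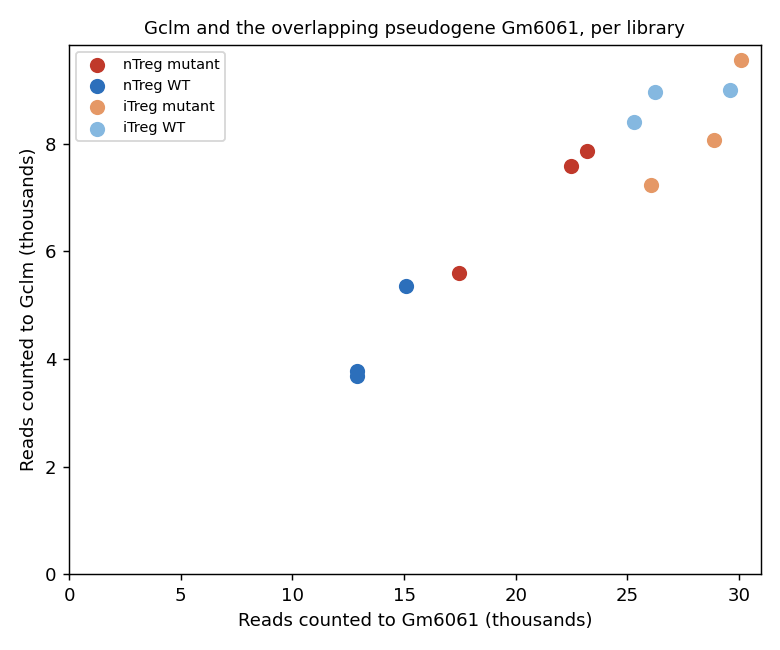
Reads counted to Gclm (vertical axis) against reads counted to the overlapping pseudogene Gm6061 (horizontal axis), 1 point for each of the 12 libraries, coloured by group. The points lie close to 1 line through the origin, with Gclm at 27.7% to 35.5% of Gm6061.

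Each library held 28707579 to 39886130 counts. Within a group, chi-square per degree of freedom between libraries was 4.35 to 50.8, where counting noise alone gives about 1, so none was a copy of another. Levels are given as CPM, counts scaled to a common depth with TMM library sizes. Foxp3, the defining gene of Tregs, was at 135, 181 and 217 CPM in mutant nTregs, against 610.5, 564 and 559 CPM in WT nTregs, and at 107, 96.4 and 75.5 CPM in mutant iTregs, against 300.4, 287 and 291 CPM in WT iTregs. The nTreg library labelled mutant 1 stood apart: its 11 CD8 and NK cell markers summed to 1648 CPM, against 180 to 208 CPM in the other mutant nTreg libraries and 67.3 to 79.0 CPM in WT nTregs, with none of the 11 at 0 throughout a group. In iTregs these markers summed to 59.0 to 89.3 CPM in the mutant and 37.9 to 56.9 CPM in WT, with Gzma, Gzmk and Ncr1 at 0. In that nTreg library 7 of the 10 glutathione genes had their highest level among mutant nTregs, as did 42.3% of all tested genes. B cell markers summed to 937 to 1602 CPM in mutant nTregs, 1466 to 1660 CPM in WT nTregs, and to 45.9 to 57.5 CPM in mutant iTregs and 63.4 to 75.0 CPM in WT iTregs. Myeloid markers summed to 34.4 to 59.1 CPM in mutant nTregs and 43.5 to 46.3 CPM in WT nTregs, and to 6.01 to 7.06 CPM in mutant iTregs and 9.65 to 11.1 CPM in WT iTregs, where S100a8 and S100a9 were at 0. Erythroid markers summed to 180 to 904 CPM in mutant nTregs and 111 to 389 CPM in WT nTregs, and to at most 0.108 CPM in iTregs, where Alas2 and Slc4a1 were at 0.

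In mutant nTregs, 5 of the 10 genes were higher than in WT nTregs (Gclm, Gss, Gsr, Ggt1 and Chac1), 1 was lower (Gclc) and 4 did not pass the test. The test was edgeR's quasi-likelihood F-test with Benjamini-Hochberg adjustment over all 17977 genes and a threshold of 0.05. The background was high: 19.3% of all tested genes were higher and 15.6% lower. The median log2 fold change of the 10 was 0.55, beside 0.04 over all genes tested. In mutant iTregs, 0 of the 10 were higher and only Gclc was lower, where 14% of all tested genes were higher and 11.4% lower, and the median of the 10 was -0.03 beside 0.04. At an unadjusted p below 0.05 the count of higher genes in iTregs was also 0, since the smallest unadjusted p apart from that of Gclc was 0.0712, of Chac2, and DESeq2 also called 0 higher. Without Gclm, 4 of the other 9 genes were higher in mutant nTregs. Markers of other cells were also higher there: 10 of 11 for CD8 and NK cells and 2 of 7 for erythroid cells passed. No B cell or myeloid marker did. The CD8 and NK sums were 180 to 1648 CPM in mutant nTregs, against 67.3 to 79.0 CPM in WT nTregs. The part of other cells in the nTreg calls of the 10 genes was not tested.

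**Figure D2:**
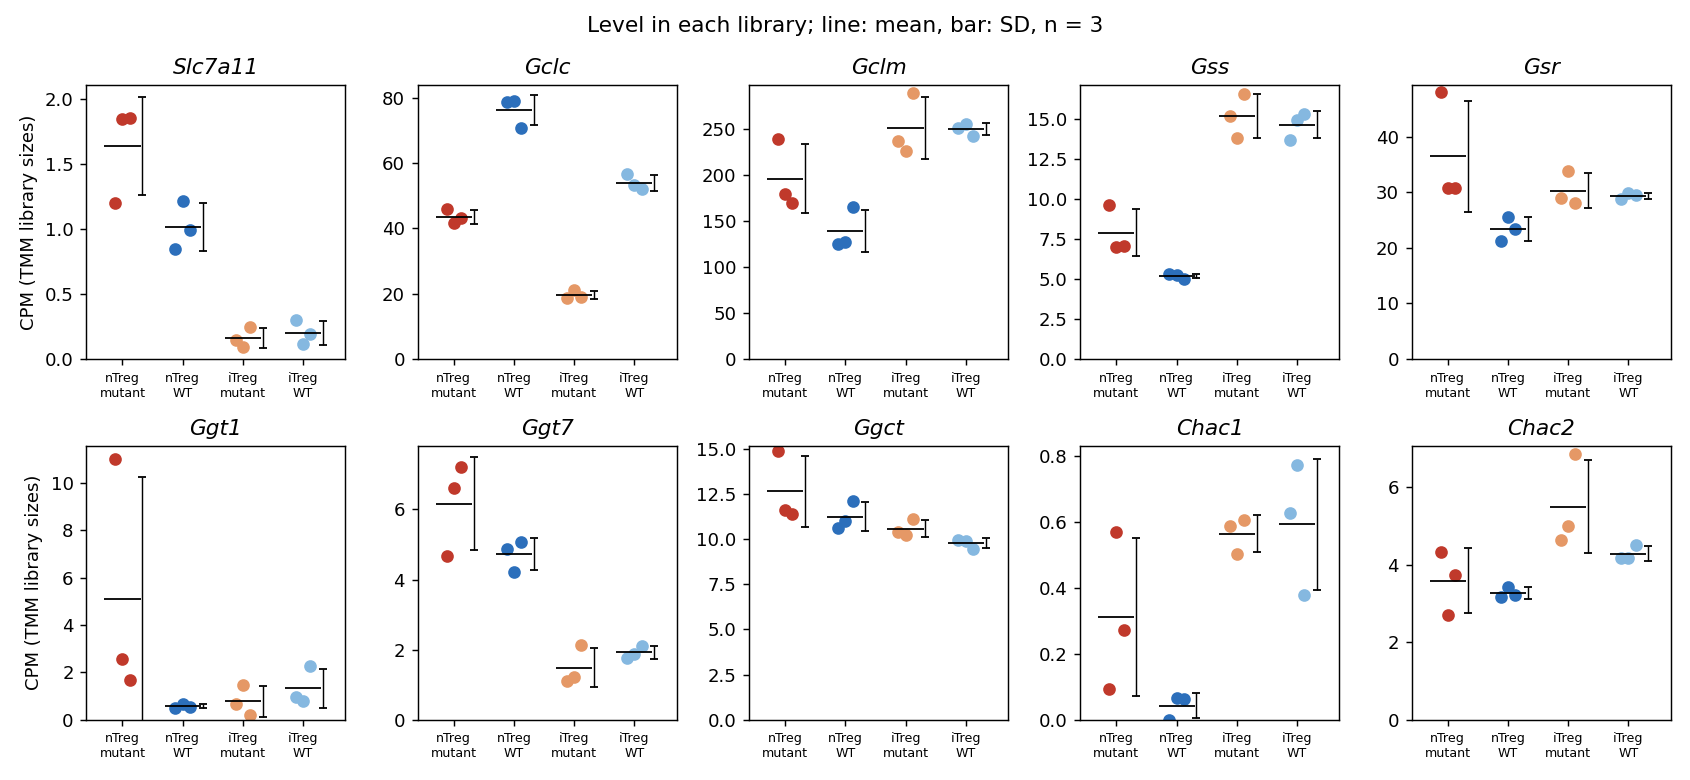
Level of each gene in CPM (vertical axis, from 0, scale differs between panels) in the 3 libraries of each group, with the mean as a line and the SD as a bar. Gclc is lower in both mutant groups than in the WT group beside it, while Ggt1 and Chac1 are spread widely among the mutant nTreg libraries.

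Slc7a11 (ENSMUSG00000027737; GRCm38 chr3:49892526-50443614, minus strand), the cystine carrier, was at 1.20, 1.85 and 1.86 CPM in mutant nTregs, against 0.848, 1.21 and 0.992 CPM in WT nTregs. The groups overlapped by 1 pair of libraries, and the log2 fold change of 0.69 ± 0.29 (SE, n = 3 against 3) missed the threshold (edgeR, adjusted p = 0.0858). Without nTreg mutant library 1 it passed, at 0.89 ± 0.29 (adjusted p = 0.0343). In iTregs the gene had hardly any reads: 5, 3 and 8 counts in the mutant libraries, against 10, 4 and 7 in the WT libraries (-0.30 ± 0.47, adjusted p = 0.684). The 95% interval of the iTreg value ran from -1.32 to 0.72 on the log2 scale, so only changes beyond these bounds lie outside it. One short annotated transcript of 481 bases carries 386 bases like those of the tubulins Tuba1a and Tuba1c. The longest, of 9223 bases, carries 522 bases like those of transcripts of 1139 other genes. In iTregs Slc7a11 was at 0.0942 to 0.299 CPM and Tuba1a at 407 to 493 CPM. The part of tubulin reads, or of reads of those other genes, in the Slc7a11 counts of any group was not tested.

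Gclc (ENSMUSG00000032350; chr9:77754535-77794485, plus strand), the targeted gene, checks the labels. It was at 45.8, 41.7 and 43.2 CPM in mutant nTregs, against 78.7, 79.0 and 70.8 CPM in WT nTregs, and at 18.8, 21.0 and 19.0 CPM in mutant iTregs, against 56.5, 53.2 and 51.9 CPM in WT iTregs. No library of a mutant group reached the lowest of its WT group, a separation shared by 22.6% of all tested genes in nTregs and 19.7% in iTregs, and both falls passed the test (adjusted p = 7.03e-05 in nTregs and 1.64e-06 in iTregs). The gene kept a fraction of 0.364 of its WT level in iTregs and 0.572 in nTregs. This difference between the effects was itself tested: the log2 effect was lower by 0.65 ± 0.10 in iTregs (iTreg minus nTreg -0.65, 95% interval -0.88 to -0.43, adjusted p = 0.00381), one of 2 genes of the 10 for which the difference passed, both negative, where 13.3% of all tested genes passed, 6.12% positive and 7.18% negative. The counts are summed over the gene, so reads of exons outside the mutated part may remain in them. In these bulk samples, fewer cells that carry the transcript and less of it per cell cannot be told apart. B cell markers summed to 937 to 1602 CPM in mutant nTregs, against 45.9 to 57.5 CPM in mutant iTregs. In WT they summed to 1466 to 1660 CPM in nTregs, against 63.4 to 75.0 CPM in iTregs. The part of other cells in the Gclc levels and in the difference of its effects was not tested. The 4 groups followed each other without overlap, WT nTregs highest, then WT iTregs, mutant nTregs and mutant iTregs.

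Gclm (ENSMUSG00000028124; chr3:122245557-122270732, plus strand), within the limit given above, was at 239.8, 179 and 170.2 CPM in mutant nTregs, against 125, 127 and 166 CPM in WT nTregs. Every mutant nTreg library was above every WT one, as for 25.7% of all tested genes, the closest pair by a few CPM, and the log2 fold change was 0.49 ± 0.14 (adjusted p = 0.0175). Leaving out nTreg WT library 1 (adjusted p = 0.0764) or 2 (0.0723) ended that call. Gm6061 and Ppia, which share its bases, also rose, by 0.40 ± 0.10 (adjusted p = 0.00968) and 0.32 ± 0.10 (adjusted p = 0.0248), and the call on Ppia did not survive leaving out nTreg WT library 2 (0.0763) or 3 (0.128) or with the nTreg libraries fitted alone (0.076). In iTregs Gclm was at 237, 227 and 289.8 CPM in the mutant, against 252, 256 and 243 CPM in WT (0.01 ± 0.14, adjusted p = 0.999). Within a library, the ratio of Gclm to Gclc per kilobase was 2.36 to 3.13 in mutant nTregs, against 0.950 to 1.40 in WT nTregs, and 6.46 to 9.12 in mutant iTregs, against 2.66 to 2.89 in WT iTregs. All mutant ratios were above all WT ratios in both kinds of Treg (exact permutation test, two-sided, p = 0.1 each, the smallest it can give), and the ratio carries both the fall of Gclc and whatever Ppia reads add.

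Gss (ENSMUSG00000027610; chr2:155563181-155592810, minus strand), which completes glutathione, was at 9.61, 6.98 and 7.09 CPM in mutant nTregs, against 5.29, 5.22 and 5.02 CPM in WT nTregs. All mutant libraries were higher, as for 25.7% of all tested genes, and mutant library 1 was the highest. Gss rose by 0.60 ± 0.13 on the log2 scale (adjusted p = 0.00427), and by 0.47 ± 0.11 without that library (adjusted p = 0.00604). In mutant iTregs it was at 15.1, 13.8 and 16.5 CPM, against 13.7, 14.9 and 15.3 CPM in WT iTregs, and the groups overlapped (0.05 ± 0.12, adjusted p = 0.8, 95% interval -0.21 to 0.31). The effects in the 2 kinds of Treg differed by -0.55 ± 0.18, just short of the threshold (adjusted p = 0.0584). That difference passed with RLE scaling (adjusted p = 0.0477), library size alone (0.0188), a minimum of 1 CPM (0.0332) or DESeq2 (0.0248), and without any of 4 single libraries, nTreg mutant 1 (0.0364), 2 (0.0474) or 4 (0.0491) or iTreg mutant 4 (0.045).

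Gsr (ENSMUSG00000031584; chr8:33652523-33698163, plus strand), glutathione reductase, was at 47.9, 30.7 and 30.7 CPM in mutant nTregs, against 21.3, 25.5 and 23.4 CPM in WT nTregs. All mutant libraries lay above all WT libraries, as for 25.7% of all tested genes, with library 1 far above the others. Gsr rose by 0.64 ± 0.15 (adjusted p = 0.00685), and by 0.42 ± 0.09 without nTreg mutant library 1 (adjusted p = 0.00478). In mutant iTregs it was at 29.0, 33.8 and 28.0 CPM, against 28.8, 29.8 and 29.4 CPM in WT iTregs (0.05 ± 0.15, adjusted p = 0.861, 95% interval -0.28 to 0.37). The difference of effects, -0.59 ± 0.21, missed the threshold (adjusted p = 0.0824) and passed without nTreg mutant library 1 (0.0346) or 4 (0.0485), with library size alone (0.0304), with no filter (0.0486) and with DESeq2 (0.0374).

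Ggt1 (ENSMUSG00000006345; chr10:75561604-75586200, plus strand), the gamma-glutamyl transferase of the cell surface, was at 11.03, 2.58 and 1.67 CPM in mutant nTregs, against 0.509, 0.674 and 0.527 CPM in WT nTregs. It was higher in 3 of 3 mutant libraries, as for 25.7% of all tested genes. Library 1, the one with the high CD8 and NK marker sum, held most of the reads, with 349 counts against 113 and 55 in the other mutant libraries. The log2 fold change was 3.14 ± 0.76 (adjusted p = 0.0077), and 1.94 ± 0.57 without that library (adjusted p = 0.0238). The part of the other cell markers in this result was not tested. In mutant iTregs Ggt1 was at 0.647, 1.48 and 0.212 CPM, against 0.958, 0.773 and 2.27 CPM in WT iTregs, and the groups overlapped (-0.79 ± 0.76, adjusted p = 0.479). That iTreg value hung on single libraries, at -1.63 without mutant library 2 and -0.16 without WT library 3. The effects differed by -3.93 ± 1.08 (iTreg minus nTreg, adjusted p = 0.0333). This call was lost without any of 7 single libraries: nTreg WT 1 (0.0797), 2 (0.0719) or 3 (0.0643), iTreg mutant 1 (0.0762) or 4 (0.0508), or iTreg WT 1 (0.0524) or 3 (0.0889). Without nTreg mutant library 1 the difference was -2.77 ± 0.78 (0.0299).

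Ggt7 (ENSMUSG00000027603; chr2:155490379-155518237, minus strand), a family member of less well known activity, was at 4.68, 6.62 and 7.21 CPM in mutant nTregs, against 4.89, 4.21 and 5.08 CPM in WT nTregs. Mutant library 1 lay within the WT range and the other mutant libraries above it, so that 0.38 ± 0.21 missed the threshold (adjusted p = 0.182) and 0.58 ± 0.20 without library 1 passed (0.0497). In mutant iTregs it was at 1.12, 1.22 and 2.12 CPM, against 1.77, 1.89 and 2.11 CPM in WT iTregs (-0.37 ± 0.25, adjusted p = 0.294). Mutant library 4 was level with the highest WT library, and without it Ggt7 passed as lower in iTregs (-0.72, adjusted p = 0.0403). The remaining mutant iTreg libraries held only 38 and 39 Ggt7 reads.

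Chac1 (ENSMUSG00000027313; chr2:119351229-119354381, plus strand), the stress-induced enzyme that degrades glutathione in the cytosol, was higher in mutant nTregs, on very few reads. Its counts were 3, 25 and 9 in the mutant nTreg libraries, against 0, 2 and 2 in the WT nTreg libraries, or 0.0948, 0.570 and 0.274 CPM against 0, 0.0674 and 0.0620 CPM. All mutant libraries were higher, as for 25.7% of all tested genes, the lowest of them by a single read (log2 fold change 2.81 ± 0.78, adjusted p = 0.0148). The call was lost without nTreg mutant library 2 (1.97, adjusted p = 0.0763) or nTreg WT library 1 (2.28, adjusted p = 0.0542). It held without nTreg mutant library 1 (3.24 ± 0.67, adjusted p = 0.00358), which had the fewest Chac1 reads of the mutant libraries. The other mutant nTreg libraries still held 180 and 208 CPM of CD8 and NK markers, against 67.3 to 79.0 CPM in WT nTregs. The part of other cells in the Chac1 result was not tested. In iTregs the counts were 20, 16 and 20 in the mutant, against 21, 27 and 14 in WT, and did not separate (-0.06 ± 0.47, adjusted p = 0.955, 95% interval -1.07 to 0.95). The difference of effects was -2.87 ± 0.92 (adjusted p = 0.058). It was -3.34 ± 0.78 without nTreg mutant library 1 (adjusted p = 0.0134), and also passed with library size alone (0.0481) and with no filter (0.0401).

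Chac2 (ENSMUSG00000020309; chr11:30976707-30986350, minus strand), its constitutive relative, was at 4.33, 2.69 and 3.74 CPM in mutant nTregs, against 3.16, 3.44 and 3.22 CPM in WT nTregs, with the WT libraries inside the mutant range (0.13 ± 0.19, adjusted p = 0.638). In mutant iTregs it was at 4.65, 4.99 and 6.86 CPM, against 4.16, 4.18 and 4.51 CPM in WT iTregs. All mutant iTreg libraries were higher, as for 26.8% of all tested genes, but 0.36 ± 0.18 missed the threshold (adjusted p = 0.166). The ratio of Chac1 to Chac2 per kilobase was 0.0204, 0.173 and 0.0618 in mutant nTregs, against 0.00430, 0.0196 and 0.0192 in WT nTregs, with 0.5 added to each count. Every mutant ratio was above every WT ratio, the lowest by little (exact permutation p = 0.1, the smallest possible), and in iTregs the ratios overlapped at 0.0727 to 0.104 in the mutant, against 0.0695 to 0.151 in WT (exact p = 0.5).

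Ggct (ENSMUSG00000002797; chr6:54982580-54992950, minus strand), the cyclotransferase that acts on gamma-glutamyl amino acids rather than on glutathione itself, was the steadiest of the 10. It was at 14.9, 11.6 and 11.4 CPM in mutant nTregs, against 10.6, 10.98 and 12.1 CPM in WT nTregs (0.17 ± 0.11, adjusted p = 0.26). In mutant iTregs it was at 10.4, 10.2 and 11.1 CPM, against 9.97, 9.88 and 9.46 CPM in WT iTregs (0.11 ± 0.11, adjusted p = 0.48). The highest group mean of Ggct was 1.29 times its lowest, beside 13.8 times for Chac1, 10.1 times for Slc7a11 and 3.89 times for Gclc.

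**Figure D3:**
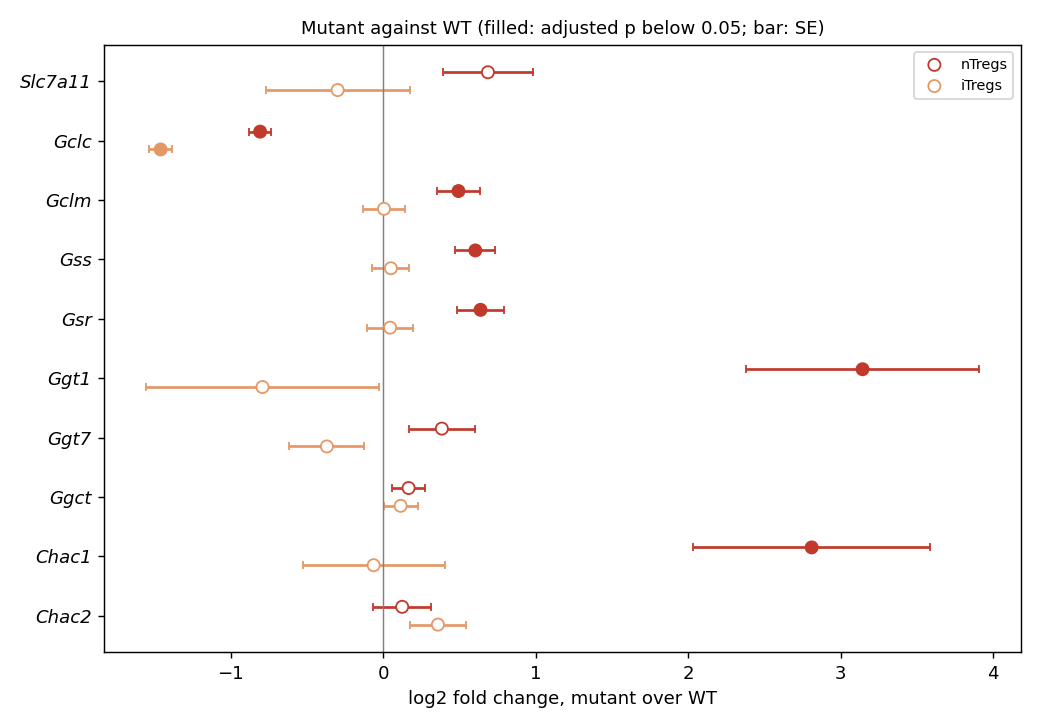
Log2 fold change of each gene in mutant over WT cells (horizontal axis) with its SE as a bar, for nTregs above iTregs in each row. Filled points passed the test. In nTregs 5 genes lie filled to the right of 0 and Gclc to the left, and in iTregs only Gclc is filled.

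Expressed per kilobase of annotated exon, the levels of the genes were ranked within a group. That length joins the exons of all annotated transcripts of a gene. It is 5915 bases for Gss, which has an annotated transcript of 1963 bases, and 3766 bases for Gclc, which has one of 3423 bases. The order of the genes therefore depends on which transcripts the cells make, which was not tested. Gclc was at 11.6 ± 0.553 CPM per kilobase in mutant nTregs, against 20.2 ± 1.23 in WT nTregs, and at 5.21 ± 0.328 in mutant iTregs, against 14.3 ± 0.632 in WT iTregs (SD, n = 3 each). Gsr was at 13.2 ± 3.61 CPM per kilobase in mutant nTregs, against 8.49 ± 0.760 in WT nTregs, and at 10.2 to 12.3 in mutant iTregs, against 10.4 to 10.8 in WT iTregs. Thus Gclc stood above Gsr without overlap in both WT groups, overlapped with it in mutant nTregs, and stood below it without overlap in mutant iTregs, where Gclc overlapped with Chac2. Gss was at 1.33 ± 0.251 CPM per kilobase in mutant nTregs and 0.876 ± 0.024 in WT nTregs, and at 2.56 ± 0.231 in mutant iTregs and 2.47 ± 0.144 in WT iTregs. By this measure it was below Gclc in all 4 groups, an order that a shorter length for Gss could change. Slc7a11 and Chac1 held the lowest pair of places in both nTreg groups. In both iTreg groups Slc7a11 alone was lowest, without overlap with the next gene.

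Between the kinds of Treg the 10 genes split. Mutant iTregs had 3 of the 10 higher than mutant nTregs (Gclm, Gss and Chac2) and 4 lower (Slc7a11, Gclc, Ggt1 and Ggt7), in a comparison in which 33.2% of all tested genes were higher and 35% lower. WT iTregs had 3 higher than WT nTregs (Gclm, Gss and Chac1) and 3 lower (Slc7a11, Gclc and Ggt7), where 33.7% of all tested genes were higher and 35.7% lower. Shares of this size are close to the background. In the mutant the call on Gclm (0.36 ± 0.14, adjusted p = 0.039) was lost under 8 alternatives, among them library size alone (0.17, adjusted p = 0.289) and leaving out nTreg mutant library 2 (0.121) or 4 (0.143), iTreg mutant library 4 (0.162) or iTreg WT library 2 (0.0501). The call on Chac2 (0.62 ± 0.18, adjusted p = 0.00913) was lost with the mutant libraries fitted alone (0.0522). How the cells were obtained differs between the kinds, and B cell, myeloid and erythroid marker sums were far higher in nTregs, so kind, preparation and other cells cannot be told apart.

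Of the genes lower in iTregs, Slc7a11 differed most: the fold of iTregs over nTregs was 0.101 in the mutant (log2 -3.31 ± 0.37, adjusted p = 6.37e-06) and 0.199 in WT (-2.33 ± 0.37, adjusted p = 0.000106). Ggt7 was lower too, at -2.05 ± 0.23 in the mutant (adjusted p = 7.73e-06) and -1.30 ± 0.23 in WT (adjusted p = 0.000254). Gss moved the other way, 1.93-fold higher in mutant iTregs than in mutant nTregs (0.95 ± 0.12, adjusted p = 2.54e-05) and 2.83-fold higher in WT iTregs than in WT nTregs (95% interval of the log2 fold change 1.22 to 1.78, adjusted p = 5.9e-07). Chac1 was at 0.566 ± 0.0560 CPM in mutant iTregs, against 0.313 ± 0.240 CPM in mutant nTregs, and the groups overlapped (0.78 ± 0.50, adjusted p = 0.18; 1.59 and adjusted p = 0.0199 without nTreg mutant library 2). It was at 0.593 ± 0.200 CPM in WT iTregs, against 0.0431 ± 0.0374 CPM in WT nTregs (3.65 ± 0.72, adjusted p = 0.000584). Ggt1 was lower in mutant iTregs than in mutant nTregs by a log2 difference of -2.70 ± 0.73 (adjusted p = 0.00519), and by -1.55 ± 0.55 without nTreg mutant library 1 (adjusted p = 0.0227). In WT, Ggt1 was higher in every iTreg library, as for 37.9% of all tested genes, and did not pass (1.23 ± 0.80, adjusted p = 0.188).

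**Figure D4:**
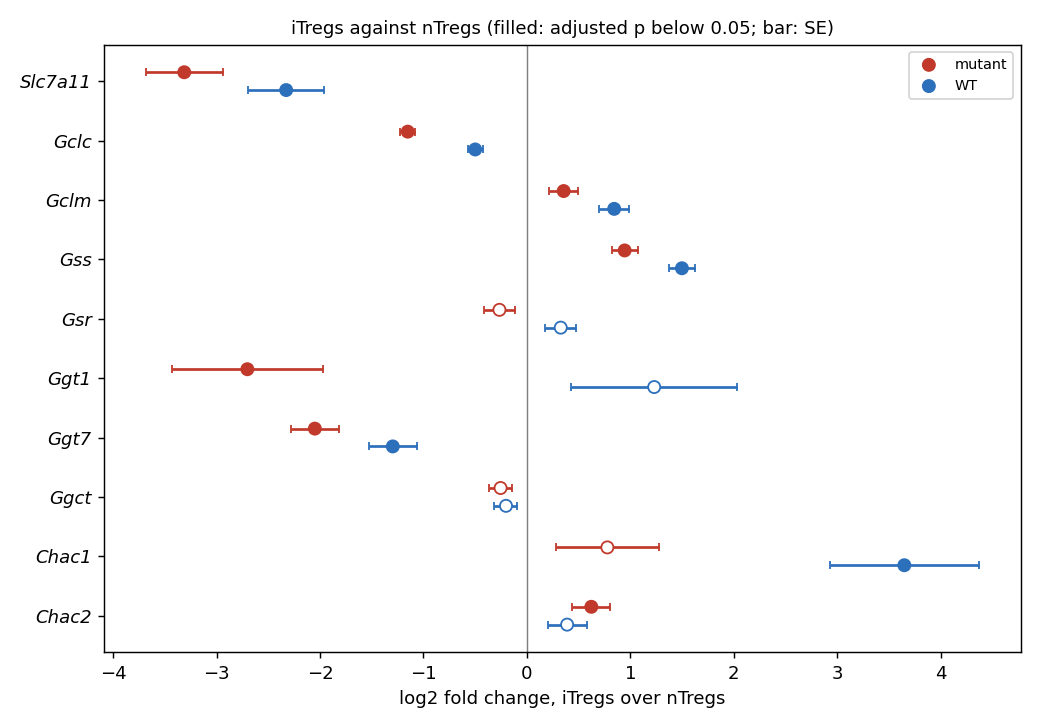
Log2 fold change of each gene in iTregs over nTregs (horizontal axis) with its SE as a bar, for mutant cells above WT cells in each row. Filled points passed the test. Slc7a11, Gclc and Ggt7 are filled to the left of 0 in both genotypes, and Gss and Gclm to the right.

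Chac1 and Slc7a11 thus went in opposite directions between WT iTregs and WT nTregs. Their promoters are printed because both genes are known ATF4 targets and both windows hold the core of the ATF4 response element, TGATGNAA on either strand. The sequences are RefSeq's for GRCm38.p6, the 250 bases before the gene's start, read along the gene, with each match in capitals.
Chac1, chr2:119350992-119351241, plus strand: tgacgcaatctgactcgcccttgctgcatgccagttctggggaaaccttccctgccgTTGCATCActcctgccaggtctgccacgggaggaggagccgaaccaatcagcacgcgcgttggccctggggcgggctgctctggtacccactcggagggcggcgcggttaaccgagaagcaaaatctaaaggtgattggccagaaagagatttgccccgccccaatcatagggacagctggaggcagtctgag
Slc7a11, chr3:50443614-50443863, minus strand: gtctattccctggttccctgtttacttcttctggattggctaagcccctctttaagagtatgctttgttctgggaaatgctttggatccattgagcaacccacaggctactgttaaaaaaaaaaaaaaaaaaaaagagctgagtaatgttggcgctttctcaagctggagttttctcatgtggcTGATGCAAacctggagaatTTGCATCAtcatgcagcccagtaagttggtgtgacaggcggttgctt
Windows from 250 bases before to 50 after a start were searched for 8 of the 10 genes, all but Gclc and Gsr, in 11 windows. The core stood at -193 on the opposite strand in Chac1, and at -66 on the same strand and -47 on the opposite strand in Slc7a11, and in none of the windows of the other 6 genes. Of all 32851 RefSeq windows of this length, 3.97% hold it. The core of the antioxidant response element that NRF2 binds, TGACNNNGC on either strand, stood in the windows of Gclm, Ggct and Ggt1, and in 12.4% of all windows. No window of these genes held both motifs. A match of letters is a description and not a bound site.

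Other genes of the pathway were counted from lists of the gamma-glutamyl cycle, of cysteine supply and of the NRF2 and ATF4 regulators. In mutant nTregs 6 of 12 tested genes of the gamma-glutamyl cycle were higher and 2 lower, with a median log2 fold change of 0.15, beside 19.3% higher, 15.6% lower and a median of 0.04 over all genes tested. The 6 became 3 without nTreg WT library 1, 2 or 3 or with a replicate block, and the 2 became 1 under 5 alternatives, among them leaving out nTreg mutant library 1. Slc25a39, the carrier that brings glutathione into mitochondria, was at 25.2 ± 1.43 CPM in mutant nTregs, against 15.9 ± 0.650 CPM in WT nTregs (SD, n = 3 each; 0.66 ± 0.09, adjusted p = 0.000453). Cndp2, a dipeptidase that splits cysteinylglycine, rose by 0.47 ± 0.10 (adjusted p = 0.00331), and Lap3, an aminopeptidase, by 0.48 ± 0.12 (adjusted p = 0.0103, and 0.0517 with the nTreg libraries fitted alone). Abcc5, an organic anion exporter, fell in nTregs (-0.81 ± 0.12, adjusted p = 0.000472). In mutant iTregs 2 of these 12 genes passed, both lower, beside 14% higher and 11.4% lower over all genes (median -0.08, beside 0.04), and 1 more passed as higher without nTreg mutant library 1 or iTreg mutant library 4. The 2 were Abcc5 (-0.51 ± 0.12, adjusted p = 0.00865) and Oplah, which opens 5-oxoproline to glutamate (-1.02 ± 0.18, adjusted p = 0.00313). The effects on Slc25a39 differed between the kinds of Treg by -0.88 ± 0.13 (iTreg minus nTreg, adjusted p = 0.00324).

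Of 11 tested genes of cysteine supply, 4 were higher and 2 lower in mutant nTregs (median 0.36). Over all genes tested 19.3% were higher and 15.6% lower there (median 0.04). In mutant iTregs 1 of the 11 passed, as higher (median -0.21), beside 14% higher and 11.4% lower over all genes (median 0.04). In nTregs the 2 lower became 1 without nTreg mutant library 1 or nTreg WT library 2 or with a replicate block. In iTregs 4 were lower without nTreg mutant library 1, 3 with library size alone, and 1 without iTreg mutant library 4 or iTreg WT library 3 or with the iTreg libraries fitted alone. Slc7a5, a large neutral amino acid carrier, was at 79.7 ± 20.5 CPM in mutant nTregs, against 36.8 ± 1.45 CPM in WT nTregs (1.11 ± 0.15, adjusted p = 0.000343). Slc1a4 rose by 1.91 ± 0.24 (adjusted p = 0.000273), and Cdo1, the dioxygenase that oxidises cysteine, fell (-0.89 ± 0.23, adjusted p = 0.0117). Cth, which makes cysteine from cystathionine, passed in both kinds. It was at 0.535 ± 0.160 CPM in mutant nTregs, against 0.0319 ± 0.0310 CPM in WT nTregs (adjusted p = 0.00138). That WT level lay below the 0.0431 CPM of Chac1 there, which came from counts of 0, 2 and 2, so the nTreg change is imprecise. In mutant iTregs Cth was at 2.47 ± 1.23 CPM, against 0.874 ± 0.0673 CPM in WT iTregs (1.49 ± 0.35, adjusted p = 0.00988).

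Among 17 regulators, 2 were higher and 3 lower in mutant nTregs (median -0.02), beside 19.3% higher and 15.6% lower over all genes tested (median 0.04). In mutant iTregs 4 were higher and 6 lower (median -0.10), beside 14% higher and 11.4% lower over all genes (median 0.04). The 2 higher in nTregs became 1 under most alternatives, including without nTreg mutant library 2, iTreg mutant library 1 or 2, or any 1 of the WT libraries of either kind. The iTreg counts became 1 higher and 1 lower without iTreg WT library 1, 2 and 1 without iTreg mutant library 1, and 2 and 2 without iTreg mutant library 2 or iTreg WT library 2. The count of higher regulators was 2 without iTreg WT library 3, with library size alone or with no filter, and 1 with a replicate block. Atf3, a stress-induced factor, rose by 1.38 ± 0.25 in nTregs (adjusted p = 0.00162) and by 0.78 ± 0.18 in iTregs (adjusted p = 0.0105, but 0.0552 without iTreg WT library 1 and 0.0737 with a replicate block). Bach1, a repressor of antioxidant genes, fell in nTregs (-0.47 ± 0.10, adjusted p = 0.00434) and in iTregs (-0.84 ± 0.10, adjusted p = 0.000536), and its relative Bach2 fell in nTregs (-0.87 ± 0.14, adjusted p = 0.000966). Cebpb rose in iTregs (1.25 ± 0.29, adjusted p = 0.00914). Ddit3 fell in nTregs (-0.39 ± 0.13, adjusted p = 0.0352), a call that ended without any of 5 of the 6 nTreg libraries (0.0601 to 0.129), and the autophagy adaptor Sqstm1 fell in iTregs (-0.27 ± 0.07, adjusted p = 0.0132), but not without iTreg mutant library 1 (0.0624) or iTreg WT library 1 (0.0719). Singled out after their values were seen, the messenger of NRF2, Nfe2l2, changed by -0.14 ± 0.08 in nTregs (adjusted p = 0.173) and -0.05 ± 0.08 in iTregs (0.704), and Atf4 by 0.19 ± 0.11 in nTregs (0.213) and -0.10 ± 0.11 in iTregs (0.543), none past the threshold.

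For 3 of the genes the closest profiles over the 12 libraries were named, by the root mean square difference of centred log2 CPM. Those nearest to Gclc were Zfp652 (0.246), Sez6l2 (0.246) and Bcl9l (0.247), which for Zfp652 meant 60.0 CPM in mutant nTregs, against 106 CPM in WT nTregs, and 36.0 CPM in mutant iTregs, against 66.1 CPM in WT iTregs. Nearest to Slc7a11 were Mapk8ip1 (0.288), Slc52a3 (0.339) and Dpp10 (0.346), all with higher means in both nTreg groups than in both iTreg groups. Chac1 had no profile as close, with Epha2 at 0.462, Fam229b at 0.484 and Adgrg1 at 0.487, all lowest in WT nTregs.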

How the data were processed

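The deposited files hold integer read counts per gene, 1 table per library. Per the file headers, the authors made these counts with featureCounts 1.5.2 on Ensembl release 87 of GRCm38, by exon summed to gene, reverse-stranded, with multi-mapping reads counted and a read that overlaps several genes assigned by largest overlap. Per the submitters' processing notes, the tools were bcl2fastq 2.18.0.12, STAR 2.5.2b for alignment and Subread 1.5.2, and the build mm10. Per the labels' protocols, libraries were stranded messenger RNA libraries made from total RNA.

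Counts were tested with edgeR 4.0.16 in R 4.3.3: filterByExpr, TMM scaling, 1 mean for each of the 4 groups in a fit of all 12 libraries, and two-sided quasi-likelihood F-tests. Mutant was compared with WT in each kind of Treg, the 2 effects with each other, and iTregs with nTregs in each genotype. The SE comes from the F statistic, and 95% intervals use its degrees of freedom. Depth was 28707579 to 39886130 counts per library, so genes with fewer than about 30 reads are imprecise. Similar stretches were found with blastn 2.17.0 (at least 50 bases, 95% identity). The fit was also run on simulated counts in which some genes were changed by known folds in mutant nTregs. These counts held no outlying library and no mixture of cells, so that run cannot speak to such features of the data.

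Alternatives were RLE scaling, library size alone, no filter, DESeq2 1.42.0, a minimum of 1 CPM in 3 libraries, a block for the replicate number, fits of the compared libraries only, and leaving out every library singly. Of other lists, up to 4 genes with the smallest adjusted p that passed could be named per comparison. For Gclc, Chac1 and Slc7a11 the 3 nearest profiles (log2 CPM, prior count 2) were named. That search left out the 10 genes themselves and predicted-gene and pseudogene names. Members and lists were chosen with earlier results of these data known. Of 49671 genes 49326 had a symbol. Marker lists, counted as genes higher and lower in mutant nTregs, gave 10 and 0 of 11 for CD8 and NK cells, 0 and 3 of 9 for Tregs and T cells, 0 and 0 of 8 for B cells, 0 and 0 of 8 for myeloid cells, and 2 and 0 of 7 for erythroid cells.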

Additional observations from a re-analysis of the deposited data

Results flagged for a closer look

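The effect of the mutation differed between iTregs and nTregs for 2 of the 10 glutathione genes by the test of the difference itself (log2, iTreg minus nTreg, edgeR, adjusted p below 0.05): Gclc by -0.65 and Ggt1 by -3.93. Of all tested genes 13.3% passed that test, 6.12% with a positive and 7.18% with a negative difference. Of the wider lists, the amino acid carriers Slc1a4 (-2.24) and Slc7a5 (-1.39) and the kinase-like regulator Trib3 (-1.41) had more negative effects in iTregs. So did Slc25a39 (-0.88), the tRNA synthetase gene Cars (-0.65), Cndp2 (-0.53), the exporter Abcc1 (-0.44) and Mafg (-0.44). The repressor Bach2 (0.71) and the ubiquitin ligase scaffold Cul3 (0.33) went the other way. The calls of Gclc, Slc1a4, Slc7a5 and Slc25a39 held under every alternative run. Those of Ggt1, Cndp2, Abcc1, Cars, Bach2, Cul3, Mafg and Trib3 were each lost when at least 4 of the 12 libraries were left out singly.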

How the results depend on the processing

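Gclc kept its direction and call in all 5 comparisons under every alternative run. In mutant nTregs the number of the 10 genes called higher was 3 to 7 when libraries were left out singly, lowest without nTreg WT library 1 and highest without nTreg mutant library 1. In iTregs 1 to 2 were then called lower. For the difference of effects 1 to 6 were called lower, and 5 with library size alone, 4 with no filter and 4 with DESeq2. With the compared libraries alone 1 gene of the 10 was higher in mutant iTregs than in mutant nTregs, and 6 in WT iTregs than in WT nTregs. In the main fit, 19.3% of all tested genes were higher in mutant nTregs, 11.4% lower in mutant iTregs and 7.18% lower for the difference. Of all tested genes 33.2% were higher in mutant iTregs than in mutant nTregs, and 33.7% in WT iTregs than in WT nTregs.

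Over all genes, 1770 (without iTreg WT library 1) to 6260 (without nTreg mutant library 1) passed in iTregs, against 4561 with all libraries, and 1104 to 3216 for the difference, against 2392. With the replicate number as a block these counts were 3036 and 1471. Deviations of libraries with the same number correlated at -0.0639 to 0.0499, within the -0.0885 to 0.0851 of libraries with different numbers. With 3 libraries in each group, this check cannot decide whether the numbers pair the samples. Library size alone made 65.4% of nTreg calls higher (55.4% with TMM), 35.5% of iTreg calls (55.2%), 17.8% for the difference (46%) and 36% for mutant iTregs against mutant nTregs (48.7%), with medians of all genes of -0.138 and -0.205 in the last 2 comparisons. A minimum of 1 CPM gave 45% for iTregs and 34.4% for the difference.

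Reversals (log2) were of effects that did not pass the test. In iTregs Gclm was -0.00761 with RLE, -0.0823 with library size alone, -0.0389 with the 1 CPM minimum, -0.00762 with DESeq2 and -0.0382 with the iTreg libraries alone. Gss was -0.0376 and Gsr -0.0447 with library size alone, Gsr was -1.91e-05 with the 1 CPM minimum, and Ggt1 was 0.0381 with the replicate block. Leaving libraries out singly, iTreg values ran from -0.11 to 0.0741 for Gclm, -0.0163 to 0.114 for Gss, -0.0409 to 0.098 for Gsr, -0.307 to 0.174 for Chac1 and -0.703 to 0.0752 for Slc7a11. In nTregs Chac2 ran from -0.0061 to 0.279, and the difference for Ggct from -0.104 to 0.00913. The causes of these shifts were not tested. Depth limits Chac1, which had fewer than 50 reads in every library, and Slc7a11, Ggt1 and Ggt7, which had fewer than 50 in some libraries.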
